A study of Mus musculus with 12 samples.

Results

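The Nqo1 locus was examined in chromatin immunoprecipitation sequencing (ChIP-seq) of the transcription factor Nrf2 in mouse peritoneal macrophages. All peaks that overlapped the 150 kb window chr8:109850000-110000000 of the mm9 genome were taken, a window that holds Nqo1 at about positions 109912000 to 109927000. Of 8644 peaks in 6 lists, 3 lay in the window, 1 in each wild-type library and none in a mutant library. They merged into 1 region, of 4147 regions in the whole series.

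The macrophages came from mice of 7 to 8 weeks that had been injected in the peritoneum with thioglycolate broth (4%), an irritant that draws these cells in, and were harvested 4 days later. Wild-type (WT) cells were compared with Nrf2(AY/AY) cells, called AY here, whose Nrf2 is known to have tyrosine in place of an alanine of its DNA-binding region. Cells of both genotypes had received diethyl maleate at 100 µM for 4 hours, so no untreated level can be set beside the values, and the same antibody against Nrf2 was used throughout. Each genotype had 3 ChIP libraries, and their 3 input libraries were not analysed here. Whether each library stands for its own mouse is not given in the labels, and the p-values describe the spread among libraries alone, which may be technical. The lists hold peak positions, names and scores and no RNA values, so neither the cell type nor the level of Nqo1 RNA could be checked in them.

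Nqo1 encodes NAD(P)H quinone dehydrogenase 1, a cytosolic enzyme that reduces quinones to hydroquinones and so keeps them from cycling through reactive semiquinones. It is among the most widely used readouts of Nrf2. In unstressed cells the adaptor Keap1 directs Nrf2 to degradation. Electrophiles such as diethyl maleate modify Keap1, and the Nrf2 that then accumulates pairs with a small Maf protein and binds antioxidant response elements in front of its target genes. The residue changed in the AY protein is a tyrosine in Maf proteins, which as homodimers recognise the longer Maf recognition element. The comparison at Nqo1 asked whether the altered protein was found at this standard target.

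The gene lies on the minus strand in RefSeq, between Nfat5 on its lower side and Nob1 on its upper side, so its start is at the higher coordinate. All 3 WT peaks lay on that side, within 1 kb of the approximate upper edge of the gene given above. An exact distance to the start was not measured, because the gene table at hand is on another build. For the same reason the bases under the peaks were not read. The promoter that RefSeq gives for Nqo1 on GRCm38.p6 is printed here because the peaks fall at the promoter end of the gene. It comprises the 250 bases in front of the start, chr8:107403206-107403455 of that build on the minus strand, and the capitals mark TATAAA, the letters of a TATA box.

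Nqo1 promoter: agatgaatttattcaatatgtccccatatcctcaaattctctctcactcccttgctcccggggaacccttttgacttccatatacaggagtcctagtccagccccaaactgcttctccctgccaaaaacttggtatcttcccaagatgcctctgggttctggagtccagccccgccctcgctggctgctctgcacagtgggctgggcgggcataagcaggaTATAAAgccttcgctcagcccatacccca

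The TATAAA letters began 29 bases in front of the start, at -29, and were looked for after the sequence had been seen. They occurred on either strand in 13.6% of the 32851 RefSeq promoters, each taken as 300 bases with the last 50 after the start. The element of Nrf2 with a small Maf was searched on both strands as TGACNNNGC and TGAGNNNGC. Neither form was in the Nqo1 promoter window, whereas 27.8% of all promoters held at least 1 of them. The Maf recognition element, a longer palindrome that contains either form of the Nrf2 element, was in 1 promoter of the table and not in that of Nqo1. The short AP-1 core, TGAGTCA or TGACTCA, which can overlap the Nrf2 element, was also absent there and occurred in 5.20% of all promoters. These are matches of letters in a short window that reached 250 bases in front of the start. The stretch common to all WT peaks lay 331 to 823 bp beyond the approximate upper edge of the gene. The window may therefore miss most or all of that stretch, and how it lies to the WT peaks was not measured exactly. A missing match here does not show that the bases under the peaks lack the element.

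Other genes of the Nrf2 programme were compared with Nqo1 by the same letters. Of 27 such genes listed, 23 were matched to a promoter, and 14 of these had an Nrf2 element in at least 1 promoter, against 30.8% of the 27025 genes in the table. Examples from 3 genes of the thioredoxin system show what the search finds, with the matching letters in capitals, each read 5′ to 3′ on the strand that carries them, which is opposite to the gene in the sites shown. Their positions against the RefSeq start are -133 to -125 for Prdx1, -158 to -150 for Srxn1 and -92 to -84 for Txnrd1. Srxn1 had a further match in front of its start, on its own strand at -45 to -37, that is not shown. Prdx1 was also counted with TGAGNNNGC and Srxn1 with TGACNNNGC, at positions not given here. Prdx1 encodes a peroxiredoxin, Srxn1 the sulfiredoxin that repairs peroxiredoxins, and Txnrd1 the cytosolic thioredoxin reductase.

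Prdx1: gggggaTGACTCAGCgctttc
Srxn1: agaggaTGAGTCGGCtctcag
Txnrd1: tcagaaTGACAAAGCaaaaat

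In these windows 14 of the 23 matched genes had the letters. The rest of the 23 lacked them, as Nqo1 did, so the absence was not particular to Nqo1. Peaks were not assigned to the other genes, since that would need gene positions on mm9.

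At the Nqo1 region the 3 WT libraries gave nested peaks. In WT replicate 1 the peak ran from 109927122 to 109927994, a width of 873 bp. In WT replicate 2 it ran from 109927331 to 109927823, or 493 bp. In WT replicate 3 it ran from 109927232 to 109927846, or 615 bp. The narrowest peak, that of replicate 2, lay wholly inside that of replicate 3, and both lay inside that of replicate 1. The 493 bp in common were therefore chr8:109927331-109927823, and the region as a whole, chr8:109927122-109927994, was the peak of replicate 1.

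The width varied between the WT libraries. The centres of nested peaks must differ by less than their widths do, so the 2 are each set against other regions. The mean width was 660 ± 194 bp (SD, n = 3), and the widest peak was 1.77 times the narrowest, compared with a median ratio of 1.38 over the 566 regions that all 3 WT libraries held. Each list has its own typical width, 597, 508 and 549 bp at the median in WT replicates 1, 2 and 3. Only 7.86% of the peaks of replicate 1 were wider than its Nqo1 peak, while 52.4% of those of replicate 2 and 31.7% of those of replicate 3 were wider than theirs. The midpoints of the 3 peaks lay within 38 bp of each other (SD 19 bp), against a median range of 58 bp over the same 566 regions. Nesting of this kind was found at 34.3% of those regions.

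**Figure D1:**
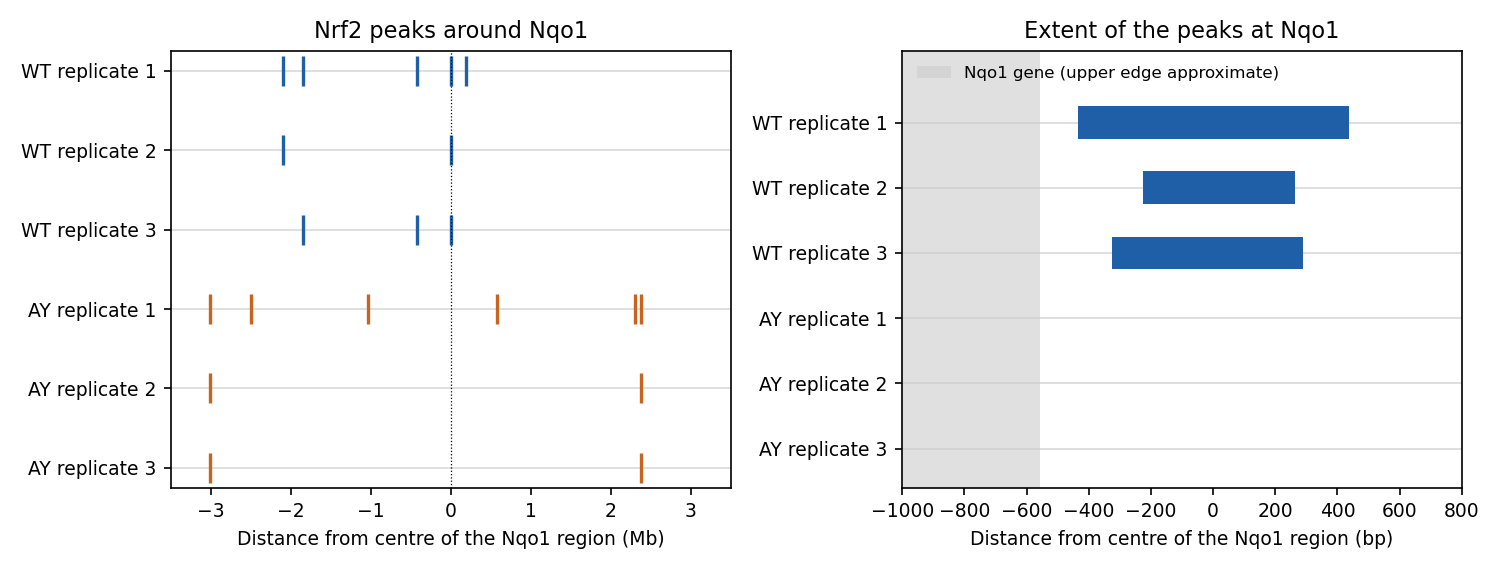
Peaks of the 6 libraries around the Nqo1 region on chromosome 8. Left, every listed peak within 3.5 Mb of the region's centre as a tick (x axis in Mb). Right, the extent of the peaks at Nqo1 as bars (x axis in bp), with the gene shaded up to its approximate upper edge. The 3 WT bars are nested and share 493 bp, and the 3 AY rows are empty.

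AY libraries had no peak in the window. WT replicates 1, 2 and 3 each had 1 peak, and AY replicates 1, 2 and 3 each had 0, so the genotypes did not overlap. The difference, AY minus WT, was -1 peak per library (exact permutation p = 0.1, two-sided). Fisher's exact test of presence in 3 of 3 against 0 of 3 libraries also gave p = 0.1, two-sided. Each library had 0 or 1 peak, so both tests used the same values and are not separate evidence. With 3 libraries in each genotype, 0.1 is the smallest p that either test allows, so the difference could not pass 0.05. Regions without an AY peak were common among those of the wild-type protein. Of the 566 regions held by every WT library, 216 had no peak in any AY library, a share of 38.2%. The pattern at Nqo1 was thus shared with 215 other regions.

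The lists differed in length. WT replicates 1, 2 and 3, which held the Nqo1 peak, listed 1604, 826 and 1533 peaks, and the AY lists without it had 2154, 1441 and 1086. Read depth is unknown for all 6 libraries, and its part in the absence of an AY peak was not tested. No list held a score under 50, so a site below that value would be missing from it, and an absent peak does not show that no Nrf2 was bound.

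No AY peak lay near the gene. The nearest was in AY replicate 1, chr8:110504346-110504918, at 576 kb on the upper side, and the nearest on the lower side was in the same library at 1039 kb. In AY replicates 2 and 3 the nearest peaks on the upper side were both at 2373 kb and those on the lower side both at 3019 kb. The distance of 576 kb from the Nqo1 region to an AY peak compares with a median of 143 kb over the 216 regions held by every WT and no AY library, of which 41 were farther from an AY peak and 174 nearer. WT peaks outside the region were also sparse. A peak of WT replicate 1 lay 184 kb above it, chr8:110111909-110112338, and WT replicates 1 and 3 had a peak 430 kb below it. WT replicate 2 had no other peak within 2099 kb.

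The Nqo1 peak stood in the upper part of each WT list without being among the first. The deposited score is the peak caller's own value for each peak, read here as -10 log10 of its p-value, and is used only within a list. In WT replicate 1 the Nqo1 peak scored 376.72, where the median of that list was 111. In WT replicate 2 it scored 181.56 with a list median of 95.5, and in WT replicate 3 it scored 179.32 with a list median of 89.5. The score ranked 168 of 1604 in replicate 1, 174 of 826 in replicate 2 and 275 of 1533 in replicate 3. Among peaks of chromosome 8 alone, the ranks were 7 of 87, 9 of 56 and 19 of 99.

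**Figure D2:**
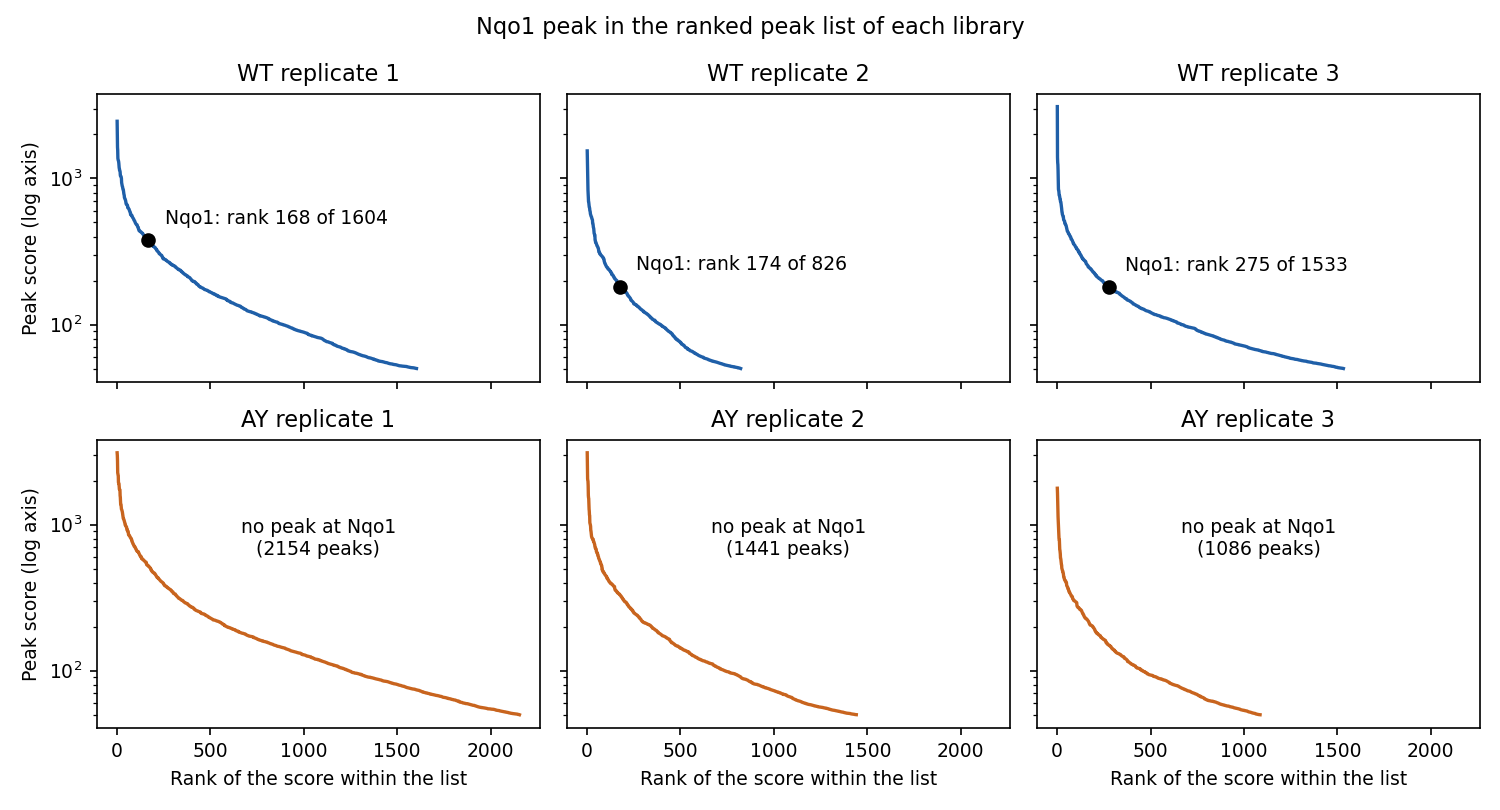
Score of every peak (log axis) against its rank within the list, 1 panel per library, with the Nqo1 peak as a black point. The point sits at rank 168, 174 and 275 in WT replicates 1, 2 and 3, and the AY panels, of 2154, 1441 and 1086 peaks, have none.

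As a share of the list, the Nqo1 peak stood within the top 10.5%, 21.1% and 17.9% of WT replicates 1, 2 and 3, a mean relative rank of 16.5% ± 5.44 (SD, n = 3). This value rests on the low-scoring peaks that each list includes, and it was 34.9% when peaks scoring under 100 were dropped and 24.9% with lists of equal length. The median SD over the 566 regions was 10.5 percentage points, and 26.9% of these regions had a smaller SD than Nqo1. These regions span mean relative ranks from 0.166% to 84.0%, and those near the top have little room to spread. The comparison is not matched for rank, so it does not show that Nqo1 was unusually even. WT replicates 1 and 2 differed in relative rank although the ranks themselves, 168 and 174, were close, because the list of replicate 2 is the shorter. Ranked only among the 566 regions that all 3 WT libraries held, so that the lists are of 1 length, the Nqo1 region was at place 165, 169 and 230 in replicates 1, 2 and 3. Replicate 3 gave the lowest place. No rank could be compared between WT and AY, because no AY list held the region.

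By mean relative rank the Nqo1 region was at place 170 of the 566 regions, at place 34 of the 216 regions with no AY peak, and at place 4 of the 20 such regions on chromosome 8. Leaving out WT replicate 2 moved it from the first 30.0% to the first 19.4% of regions held by every remaining WT library, a shift of over 1.5 times. With only peaks that scored at least 100 the share was the first 53.6%, and with lists of equal length the first 39.5%. Both settings drop low-scoring peaks, so fewer regions are held by every WT library. The share then grows by construction and does not show that other regions overtook Nqo1. The regions that ranked above Nqo1 mostly kept a peak in AY cells. Of these 169 regions, 102 had a peak in all 3 AY libraries, 34 in 1 or 2 of them and 33 in none. Only 19.5% of the regions above Nqo1 thus lacked an AY peak.

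The share of regions without an AY peak was larger at lower ranks. When the 566 regions were divided into 4 equal bins by mean relative rank, 19.9% of the first bin (28 of 141) had no AY peak, and the share was 31.0% in the second (44 of 142), 44.0% in the third (62 of 141) and 57.7% in the fourth (82 of 142). A peak in all 3 AY libraries was present at 65.2% of the first bin and 16.9% of the fourth. Nqo1 fell in the second bin, with relative ranks from 13.5% to 27.9%, in which 49 regions had a peak in all 3 AY libraries and 44 in none. Regions with a WT rank like that of Nqo1 were therefore about as often present in every AY library as absent from all of them.

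**Figure D3:**
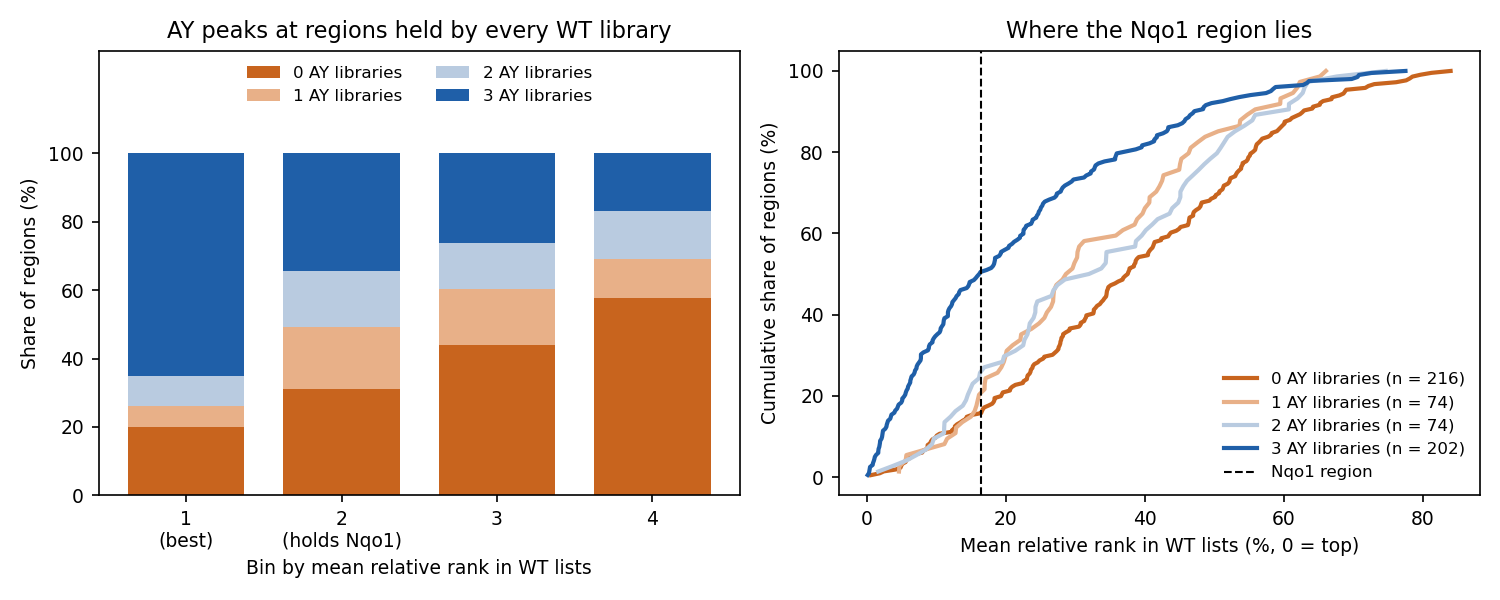
The 566 regions held by every WT library. Left, share of regions (%) with a peak in 0, 1, 2 or 3 AY libraries in each of 4 equal bins of mean relative rank; right, cumulative share (%) against mean relative rank (%) for the same 4 classes, with the Nqo1 region as a dashed line. Regions without an AY peak make up 31.0% of the bin that holds Nqo1, against 57.7% of the last bin.

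Peaks were thinly spread over the genome at the scale of the window. When the numbered chromosomes and X were divided into 17480 windows of 150 kb, from position 1 to the last peak of each, 15.7% held at least 1 region of any kind and 4.32% held 2 or more. A region held by every WT library occurred in 2.87% of windows, and one held by every WT and no AY library in 1.22%. The Nqo1 window, with 1 such region and no other, was of the latter sort.

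The regions whose pattern was most like that of Nqo1 were sought among the other 215 regions held by every WT and no AY library, by the mean absolute difference of relative rank over the 6 libraries, in which an absent peak counted as the last rank. The nearest was chr8:35970287-35971130, which differed by 0.904 percentage points on average and ranked 194, 193 and 298 in WT replicates 1, 2 and 3. The next was chr4:59003375-59004396, with a difference of 0.960 points and ranks of 184, 195 and 309. The third was chr17:63771811-63772617, with 1.32 points and ranks of 113, 144 and 262. The 3 AY libraries each count as no difference in these means, since the regions were absent from all of them. The mean differences over the WT libraries alone are therefore larger than the values given. The genes near these positions were not named.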

How the data were processed

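Nrf2 ChIP-seq peak lists of 3 WT and 3 AY libraries were analysed, of 12 samples in 4 groups. The tools were MACS 1.4, Bowtie2 and bcl2fastq 2.15.0 and the build mm9, per the submitters' processing notes. How they were set, how duplicates were treated and whether inputs served as controls is not given in the sources used here. For each library the authors deposited 1 list without a header, holding chromosome, start, end, peak name and a score. The deposited score runs from 50 to 3100 and was read as -10 log10 p, so that 50 stands for 1e-05. Starts are printed counting from 1. No read counts were given, so depth and its precision are unknown.

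Overlapping peaks of all lists (1 bp or more) were merged, and a library held a region if 1 of its peaks lay in it. Rank 1 is the highest score of a list, and relative rank is rank divided by list length. Genotype means were compared with the exact permutation test (20 assignments) and presence with Fisher's exact test. Every region of the window is named, with the 3 regions of most similar ranks. The window and the gene lists were chosen with earlier results of these data known. Alternatives were a score of at least 100, lists cut to 826 peaks, an overlap of 50%, merging up to 1 kb, numbered chromosomes, libraries left out, a window wider by 25 kb on each side, and the replicate block. Counting was tested on simulated data. Promoters came from RefSeq (GRCm38.p6). Python 3.11.15, pandas 2.3.3, numpy 2.4.6, scipy 1.17.1 and matplotlib 3.10.9 were used. The planned rank and width comparisons of AY against WT were not run, since no AY list held the region.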

Additional observations from a re-analysis of the deposited data

How the results depend on the processing

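The Nqo1 region in every WT and no AY library, and the difference of -1 peak per library, kept their values in every setting run for them. These settings left out each library in turn or both libraries numbered 3. Others raised the score to at least 100, cut lists to equal length, or changed merging, chromosomes or window. The WT peaks scored 179.32 or more and ranked 275 or better, so neither cut could remove them. Dropping peaks or libraries cannot add an AY peak, and the nearest other peak was 184 kb away. The outcome was therefore fixed in advance, and these settings were no test of it. With the replicate number as a block, the difference was -1 with an exact sign-flip p of 0.25, the smallest that 3 pairs allow. The labels do not say that the numbers pair the libraries, and deviations of same-numbered libraries over 1897 regions correlated at 0.096, 0.086 and 0.195 in numbers 1, 2 and 3, so that not all passed 0.1. Every library had its highest correlation with the one of equal number, which is a hint from the data only. The mean relative rank in WT lists, 16.5%, became 34.9% with a score of at least 100 and 24.9% with equal lists, where low-scoring peaks drop out of the lists by construction, and was 14.2% to 19.5% when a library was left out. The place among regions held by every WT library, 30.0% from the top, became 53.6% with a score of at least 100 and 39.5% with equal lists. In these settings low-scoring regions leave the set that is counted, so this share also grows by construction. It was 19.4% (without WT replicate 2) to 30.0% when a library was left out. The mean width was 554 to 744 bp when a library was left out. The stricter Nrf2 element, with A at its end, was also absent from the Nqo1 promoter window. Unknown depth limits every absence of a peak.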
